A study of Homo sapiens with 95 samples.

Results

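The comparison set AALE cells overexpressing NRG1 against AALE cells carrying the HcRed empty vector, both under the DMSO vehicle, with 3 wells on each side. These were 6 of the 95 wells of the series, chosen by their titles, which gave the population, the chemical and a replicate number from 1 to 3. AALE is an immortalized human bronchial epithelial cell line. HcRed is a red fluorescent reporter, and its vector without a further gene was the study's control for overexpression. Cells that received a Cas9-EGFP plasmid with no guide RNA (GFP) were the control of the knockout populations, and their 3 DMSO wells were used here as a second control. The other DMSO wells held cells overexpressing PIK3CA, FGFR1 or NRF2 and cells with CDKN2A or FAT1 knocked out, which brought the DMSO wells to 24. Cells were grown to confluence in 24-well plates before the vehicle was added. The wells of a condition are described as biological replicates in the methods used here. Neither the methods nor the labels say whether the wells came from separate transductions or cultures. The p-values below thus measure the spread between wells, which the fit estimates largely from all genes together. The plate positions given with the samples run from row A to row H, so they are not those of a 24-well culture plate. On that sample plate each population kept its own place. Under DMSO, HcRed held row A, columns 1 to 3, GFP row A, columns 4 to 6, and NRG1 row B, columns 4 to 6. Population and position on the sample plate therefore cannot be told apart, and positions in culture were not given.

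NRG1 encodes neuregulin, a ligand of the epidermal growth factor family. It binds the receptors ERBB3 and ERBB4, which pair with ERBB2 and signal through the ERK and PI3K-AKT pathways. In airway epithelium neuregulin made by the cells is kept apart from its receptors until the epithelial sheet is injured, and activated ERBB signalling is known for driving proliferation, wound closure and changes in differentiation.

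Expression was measured by 3′ digital gene expression (3′DGE), which reads transcript ends and counts unique molecular identifiers (UMIs), so that copies of a molecule made by PCR count once. Levels are given as CPM, counts scaled by library size, with TMM factors over the 24 DMSO wells. Fold changes come from a limma-voom fit to the 6 wells and are on the log2 scale, with NRG1 over HcRed positive. Ratios of the printed CPM ran a median of 0.03 above the fitted log2 values. A gene is called where its adjusted p is below 0.05. The NRG1 wells held 1542118 to 1641162 UMIs, the HcRed wells 1168645 to 1359967 and the GFP wells 1191511 to 1364142, so that the NRG1 libraries were the deeper ones. Between 48.7% and 51.8% of the 23895 listed genes had a count in each of these 9 wells. Pairs of wells of a group differed by more than counting noise, the chi-square statistic divided by its degrees of freedom being 1.13 to 1.34. Since RNA was taken from whole wells, fewer cells of a kind and less RNA per cell cannot be told apart.

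NRG1 itself was counted first. The NRG1 wells held 157, 164 and 189 NRG1 UMIs, which made 105, 110 and 120 CPM. The HcRed wells held 0, 0 and 1 UMIs and the GFP wells 1 each. Over the wells of a group, the share of NRG1 in the library was 412 times that in HcRed (exact 95% interval 73.6 to 16298.5) and 135 times that in GFP (46.0 to 657). These intervals cover counting error only, and the counts do not separate transcripts of the vector from those of the cell's own gene. None of the 21 other DMSO wells exceeded 3.42 CPM. Under the other chemicals the NRG1 wells held 77.8 to 115 CPM, and no HcRed or GFP well exceeded 3.24 CPM. The targeted gene thus matched the label of every one of these wells.

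Of 11328 genes tested, 349 were called, which is 3.08%. In the NRG1 wells 236 genes (2.08%) were higher and 113 (0.998%) were lower. With library totals and no TMM factors, the split turned to 106 higher and 198 lower, so the share of higher calls went from 67.6% to 34.9%. A single fit over all 24 DMSO wells, with TMM, called 62 higher and 51 lower genes for NRG1 against HcRed. The median over all genes tested was -0.03, and -0.11 without TMM. The higher genes were abundant and moved little, with a median log2 fold change of 0.28 and a median level of 402 CPM. Only 7 of them reached a log2 fold change of 1, while 129 stayed under 0.3. The lower genes were less abundant and moved further, with a median of -0.93 at 25.3 CPM, and 48 of them fell by at least 1. The median level of all genes tested was 9.10 CPM. Median transcript length was 2669 bases among higher genes, 3651 among lower genes and 3923 over all genes, and the part of length in the calls was not tested. The calls fell to 204 without NRG1 replicate 1 and to 220 without HcRed replicate 2, and 146 genes were called whichever well was left out.

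**Figure D1:**
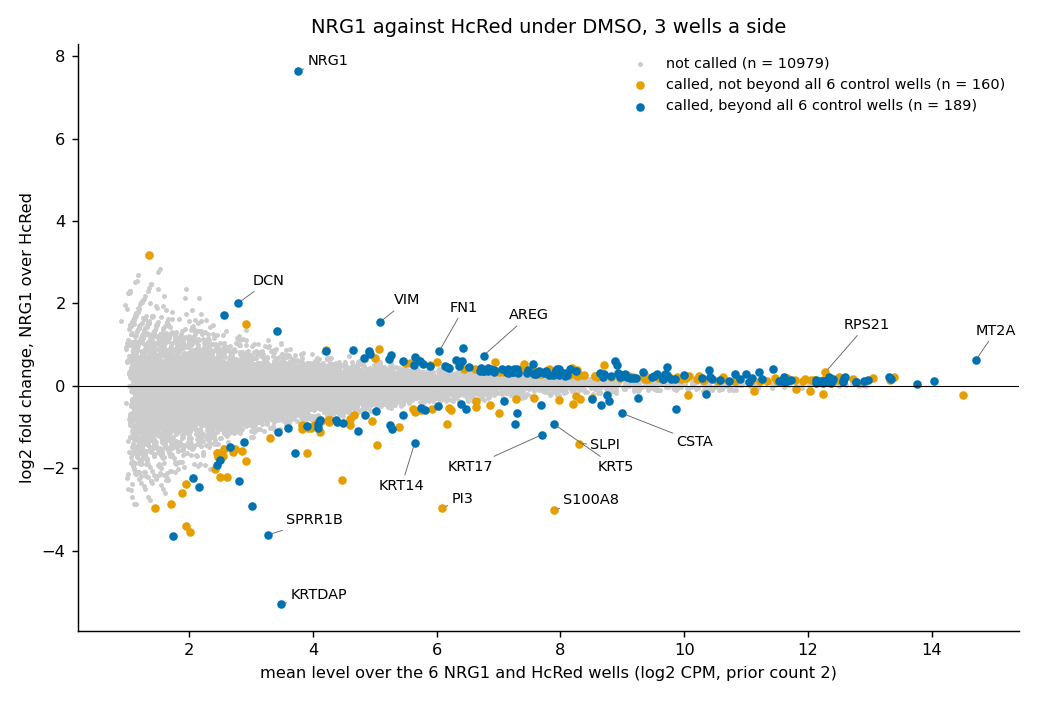
Mean level over the 6 wells (log2 CPM, x axis) against the log2 fold change of NRG1 over HcRed (y axis) for the 11328 genes tested, each a point. The higher calls lie close to 0 on the y axis at high levels with NRG1 far above them, and the lower calls spread down to KRTDAP at -5.29.

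The GFP wells showed which of these differences held against both controls. Of the 236 higher genes, 233 had all 3 NRG1 wells above all 3 HcRed wells, against 10.5% of all genes tested, and 142 lay above all 6 control wells, against 4.73%. Of the 113 lower genes, 106 lay below the HcRed wells (8.25% of all genes) and 47 below all 6 control wells (2.59%). The calls were made on these same NRG1 and HcRed wells, so the lack of overlap with HcRed largely follows from the call. The counts beyond all 6 control wells carry the same selection. For 99 higher genes (41.9%) and 55 lower genes (48.7%), the GFP mean was nearer to NRG1 than to HcRed, so that HcRed stood apart. Over all genes tested that share was 50.3%. NRG1 against GFP gave 1341 called genes of 11183 (12%), with 798 higher (7.14%) and 543 lower (4.86%). The controls themselves differed by 1202 of 11134 genes (10.8%), 661 higher in GFP (5.94%) and 541 lower (4.86%), against the 349 called between NRG1 and HcRed. These comparisons share wells, so their values are given side by side. Among the genes called against HcRed, 131 higher and 48 lower genes were also called in that direction against GFP, and 31 higher and 13 lower genes were called the opposite way.

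VIM and FN1, which are known from mesenchymal cells and wounds, rose against both controls. VIM, the intermediate filament vimentin (hg19 chr10:17270240-17279592), stood at 54.4, 63.2 and 50.3 CPM in NRG1, at 18.3, 13.8 and 25.2 in HcRed and at 13.6, 14.9 and 13.7 in GFP. FN1, the matrix protein fibronectin (chr2:216225163-216300796), stood at 91.3, 80.7 and 91.1 CPM in NRG1, at 40.0, 61.3 and 42.8 in HcRed and at 10.2, 6.63 and 5.03 in GFP. The NRG1 wells did not overlap either control for these genes. The log2 fold change of VIM was 1.54 ± 0.198 (SE, adjusted p = 4.69e-09) against HcRed and 1.96 against GFP. For FN1 it was 0.84 ± 0.139 (adjusted p = 7.71e-06) against HcRed and 3.60 against GFP, so the size of the FN1 difference depended on the control. DCN, the small matrix proteoglycan decorin, was counted at 9, 19 and 26 UMIs in NRG1, against 4, 2 and 4 in HcRed and 2, 1 and 0 in GFP. Its log2 fold change of 2.01 (adjusted p = 0.00608) was no longer called without NRG1 replicate 3 or HcRed replicate 2.

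Of 21 tested members of the mesenchymal and matrix list, 3 were higher (VIM, FN1 and CAV1) and 2 lower, with a list median of 0.17. Over all genes tested, 2.08% were higher and 0.998% lower than in HcRed, and 7.14% were higher and 4.86% lower than in GFP. The counts of this and the later lists stand beside these shares. CAV1, the caveolar coat protein caveolin-1, differed by 0.20 (adjusted p = 0.0137) and lost its call without NRG1 replicate 1 or HcRed replicate 1. SPARC, a matrix glycoprotein, and TGFBI, a matrix protein induced by TGF-beta, were the lower members. SPARC stood at 33.6, 25.5 and 28.0 CPM in NRG1, at 57.5, 47.6 and 66.4 in HcRed and at 4.26, 2.49 and 2.16 in GFP. TGFBI had the same order of groups, at 94.0 to 108 CPM in NRG1, 157 to 163 in HcRed and 57.1 to 62.5 in GFP. Both were thus called lower against HcRed (-0.99 and -0.66) and higher against GFP (3.19 and 0.79). Against GFP the list had 8 higher and 0 lower members. Among 21 markers of fibroblasts, endothelium and leukocytes, 4 had enough counts to be tested and DCN was the 1 that was called. COL1A2, COL3A1, PDGFRA, PDGFRB, VWF and CDH5 had 0 UMIs in all 9 wells, and COL1A1 had at most 2 in a well. The summed level of these markers ran from 30.9 to 42.0 CPM in NRG1, from 20.7 to 28.2 in HcRed and from 14.4 to 15.8 in GFP.

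The ERBB system was examined by role. Among ligands, AREG, the EGFR ligand amphiregulin (chr4:75310853-75320722), rose together with NRG1. It stood at 134, 146 and 139 CPM in NRG1, at 82.5, 85.5 and 77.1 in HcRed and at 36.6, 39.0 and 30.2 in GFP. The 3 groups did not overlap. Its log2 fold change was 0.74 ± 0.108 (adjusted p = 2.82e-07) against HcRed and 1.99 (adjusted p = 2.63e-16) against GFP. Its count is uncertain in level, since hg19 carries a near-identical copy. The ligands EREG and TGFA overlapped between groups, with differences of 0.04 ± 0.40 and 0.13 ± 0.379.

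Receptor transcripts were few. ERBB2, the shared signalling partner, averaged 3.10 CPM in NRG1 and 2.21 in HcRed, and ERBB3, the neuregulin receptor, averaged 5.08 and 4.41. Neither was called (adjusted p = 0.839 and 0.922), and a difference of moderate size could not be detected at this depth. ERBB4 had 0 UMIs in all 9 wells, and 3 counts in the smallest of these libraries would make 2.57 CPM. EGFR stood at 18.8, 18.2 and 28.7 CPM in NRG1 and at 33.3, 42.7 and 25.2 in HcRed, and its difference of -0.66 (adjusted p = 0.0574) missed the threshold. Against GFP the EGFR difference was 0.19 (adjusted p = 0.686). Over the 21 tested genes of the ERBB list, 2 were higher, of which 1 was the overexpressed NRG1 itself and the other AREG, 0 were lower and the median was 0.16.

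Transcripts that report on the pathways below the receptors were rare, and few were called against HcRed. Of 17 ERK target and feedback genes, 0 were called, with a list median of 0.20, whereas against GFP 3 were higher and 0 lower, with a median of 0.61. DUSP6, the ERK phosphatase, stood at 6.71, 4.03 and 8.28 CPM in NRG1 and at 2.5, 4.82 and 2.29 in HcRed, a difference of 0.85 ± 0.467 (adjusted p = 0.430), and it was called higher than in GFP (1.92, adjusted p = 0.0410). FOSL1, an AP-1 subunit, differed by 1.28 ± 0.702 (adjusted p = 0.430). Of 14 immediate early genes, 0 were called against HcRed (median 0.06) and 2 were higher against GFP (median 0.43). Of 20 FOXO and PI3K feedback genes, 0 were higher and 1 lower, with a list median of -0.12, and the 1 call was lost when any well was left out. Against GFP that list had 1 higher and 1 lower member.

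Of 9 tested metallothioneins, small proteins that bind zinc and copper, 4 rose against HcRed and 0 fell. MT2A (chr16:56642496-56643409) stood at 33810, 35665 and 31847 CPM in NRG1, at 22161, 20184 and 22055 in HcRed and at 14969, 16779 and 14769 in GFP. The lowest NRG1 well lay well above the highest control well. The log2 fold change was 0.63 ± 0.0163 (adjusted p = 6.80e-50) against HcRed and 1.13 against GFP. MT1X differed by 0.30, MT1E by 0.34 and MT1L by 0.93, and for all 4 genes the NRG1 wells lay above all 6 control wells. These counts were the same without TMM, and the list median was 0.46. The other 5 members, MT1A, MT1F, MT1G, MT1M and MT3, were not called, at -0.20 for MT1M and 0.33 to 0.97 for the rest. Against GFP 5 members were higher, the fifth being MT1A (2.11), and MT1G was lower (-0.72). The coding sequences of the family are nearly alike, so the level of each member is uncertain. The very small adjusted p and SE of abundant genes rest on a variance shared between genes. The fit had 4 residual degrees of freedom and a prior worth 77.2. For MT2A the wells scattered more than its SE implies, with an SD of 1909 CPM around a mean of 33774 in NRG1. In HcRed the SD was 1112 CPM around 21467.

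The promoters of MT2A and MT1X are shown because the genes moved together and because metallothionein promoters carry metal response elements, the binding letters of the zinc-sensing factor MTF1. Each window runs from 250 bases before to 50 after the RefSeq start site on GRCh38.p14, on the strand of the gene. Capitals mark TGCACNC or TGCGCNC on either strand.
MT2A, chr16:56608334-56608633, plus strand: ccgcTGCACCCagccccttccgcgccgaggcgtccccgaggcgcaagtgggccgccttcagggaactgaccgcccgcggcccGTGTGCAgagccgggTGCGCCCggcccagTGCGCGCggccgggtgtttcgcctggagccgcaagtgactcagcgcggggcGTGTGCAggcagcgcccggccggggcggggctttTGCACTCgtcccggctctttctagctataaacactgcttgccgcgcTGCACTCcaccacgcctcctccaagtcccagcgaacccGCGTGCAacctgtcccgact
MT1X, chr16:56682220-56682519, plus strand: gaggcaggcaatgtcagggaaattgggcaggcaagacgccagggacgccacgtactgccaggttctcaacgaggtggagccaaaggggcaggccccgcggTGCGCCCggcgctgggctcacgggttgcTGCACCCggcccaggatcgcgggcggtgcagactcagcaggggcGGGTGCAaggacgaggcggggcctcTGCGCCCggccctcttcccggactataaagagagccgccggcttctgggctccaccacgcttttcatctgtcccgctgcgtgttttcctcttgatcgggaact
The MT2A window held 8 such places and the MT1X window 4. At least 4 places occurred in 0.593% of the 27305 windows of all genes and at least 8 in 0.022%, while 29.3% held 1 or more. A match of letters is not a measured binding site.

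The largest decreases were in genes of squamous differentiation and airway defence. KRTDAP, a keratinocyte protein of the stratified epithelium (hg19 chr19:35978226-35986460), stood at 0.671, 2.02 and 0.637 CPM in NRG1, at 65.0, 46.9 and 41.2 in HcRed and at 6.82, 4.15 and 11.5 in GFP. SPRR1B, a cornified envelope precursor, stood at 0.671, 3.36 and 2.55 CPM in NRG1, at 24.2, 24.8 and 29.8 in HcRed and at 11.1, 5.81 and 9.34 in GFP. For both genes NRG1 was lowest and HcRed highest, with no overlap. Both had few counts in the NRG1 wells, where 3 counts make 1.83 to 1.95 CPM before TMM scaling, and KRTDAP lay near the floor there. KRTDAP fell by 5.29 ± 0.612 against HcRed (adjusted p = 1.21e-10) and by 2.51 against GFP. SPRR1B fell by 3.62 ± 0.475 (adjusted p = 1.07e-08) and by 2.0. CSTA, the protease inhibitor cystatin A of the cornified envelope, stood at 413, 386 and 432 CPM in NRG1, 632, 618 and 661 in HcRed and 830, 811 and 763 in GFP. Its difference was -0.67 against HcRed and -0.96 against GFP.

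The promoters of KRTDAP and SPRR1B are shown because both genes belong to the squamous program and lay in NRG1 below every control well. The AP-1 letters TGAGTCA, searched on both strands, are in capitals.
SPRR1B, chr1:153030953-153031252, plus strand, GRCh38.p14: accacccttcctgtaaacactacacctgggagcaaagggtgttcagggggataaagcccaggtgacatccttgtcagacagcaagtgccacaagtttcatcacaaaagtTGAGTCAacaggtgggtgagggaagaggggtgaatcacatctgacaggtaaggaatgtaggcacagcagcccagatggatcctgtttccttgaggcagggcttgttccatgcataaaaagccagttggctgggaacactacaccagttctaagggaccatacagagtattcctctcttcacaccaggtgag
KRTDAP, chr19:35490415-35490714, minus strand, GRCh38.p14: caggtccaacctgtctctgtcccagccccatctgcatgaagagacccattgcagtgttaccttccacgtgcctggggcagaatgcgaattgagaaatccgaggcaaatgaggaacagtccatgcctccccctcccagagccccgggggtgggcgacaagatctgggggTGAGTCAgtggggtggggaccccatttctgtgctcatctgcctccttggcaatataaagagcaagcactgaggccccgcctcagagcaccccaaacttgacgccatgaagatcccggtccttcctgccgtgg
The match began at position -141 in SPRR1B and -82 in KRTDAP, counting the start site as 0. These letters occurred in 4.92% of all windows and in 3.15% of the windows of tested genes. The E-box letters CACGTG occurred in 7.43% and 10.2%, among them KRTDAP. The AP-1 letters occurred in called genes of both directions, and their frequency was not compared between directions. Among called genes with them were the higher MT2A and DDIT3 as well as the lower SPRR3, DST and PERP. The windows of VIM, FN1, AREG, KRT5, DSP and FXYD3 held neither. Only 254 of the 349 called genes (72.8%) had a window, so a share over the called genes would be void and is not given.

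S100A8, SLPI and PI3 fell against HcRed but not against GFP. S100A8, a calcium-binding alarmin (hg19 chr1:153362508-153363549), stood at 85.9, 76.0 and 91.1 CPM in NRG1, at 708, 651 and 638 in HcRed and at 41.7, 48.9 and 55.3 in GFP. SLPI, the secretory leukocyte protease inhibitor (chr20:43880880-43883205), stood at 192, 182 and 214 CPM in NRG1, at 563, 465 and 499 in HcRed and at 67.3, 67.2 and 76.2 in GFP. PI3, the elastase inhibitor elafin, stood at 24.2, 22.9 and 24.2 CPM in NRG1, at 219, 185 and 153 in HcRed and at 21.3, 10.8 and 14.4 in GFP. In each case HcRed was the group apart, with GFP below NRG1. The log2 fold changes against HcRed were -3.01 (adjusted p = 2.27e-45), -1.40 (5.58e-28) and -2.96 (2.25e-27). Against GFP they were 0.79 and 1.48, both called, for S100A8 and SLPI and 0.67 (adjusted p = 0.0599) for PI3. High S100A8 was seen in HcRed and in NRF2 cells, at 899 to 976 CPM in the latter, and the highest well of the remaining populations, a CDKN2A well, stood at 120 CPM. SLPI had the same pattern, at 466 to 565 CPM in NRF2 cells and at most 283 in the remaining populations.

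Of 24 tested alarmin, antimicrobial and squamous genes, 13 were lower than in HcRed and 0 higher, with a list median of -1.72. NRG1 lay below all 6 control wells for 2 of the 13, CSTA and SPRR1B, and HcRed was the group apart for the other 11. Against GFP the same list had 4 higher and 4 lower members and a median of 0.43. The summed level of the list was 1045 to 1112 CPM in NRG1, 2458 to 2666 in HcRed and 1234 to 1280 in GFP. The lower members included S100A7 (-3.55), S100A9 (-1.63), SPRR3 (-3.41) and KRT16 (-2.21). Counts of KRT6A and KRT16 are uncertain, because these keratins have near-identical relatives.

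The basal keratins KRT5, KRT14 and KRT17 and the desmosomal genes DSP and DSC3 fell against both controls. KRT5, the keratin of basal cells (chr12:52908359-52914314), stood at 152, 175 and 195 CPM in NRG1, at 337, 323 and 310 in HcRed and at 231, 322 and 233 in GFP. DSP, the desmosomal plaque protein desmoplakin (chr6:7541571-7586947), stood at 114, 108 and 112 CPM in NRG1, at 210, 225 and 188 in HcRed and at 241, 268 and 211 in GFP. The NRG1 wells lay below every control well for both genes. KRT5 differed by -0.93 ± 0.0799 (adjusted p = 3.61e-16) against HcRed and -0.57 against GFP, and DSP by -0.93 ± 0.0939 (adjusted p = 6.86e-13) and -1.09. KRT14, the partner of KRT5, differed by -1.38 and -1.09. KRT17, a keratin of basal and injured epithelium, differed by -1.19 and -0.40, and both have near-identical relatives that make their level uncertain.

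Of 24 tested basal and simple epithelial genes, 9 were lower and 0 higher, with a median of -0.48, and 7 of the 9 lay below all 6 control wells. Against GFP 9 members were lower and 4 higher. KRT15, a further basal keratin, differed by -0.06 from HcRed and was not called, nor were the desmosomal genes DSG3, PKP1 and JUP. Besides the keratins they included LAMB3, a laminin chain (-0.71), DST, a hemidesmosomal linker (-0.47), and DSC3, a desmosomal cadherin (-0.90). KRT7 and KRT19, keratins of simple epithelium, were lower than in HcRed (-0.94 and -0.33) but higher than in GFP (2.86 and 0.28). Of the 13 genes taken to define epithelium, 5 were lower and 0 higher, and their summed level was 831 to 965 CPM in NRG1, 1268 to 1308 in HcRed and 931 to 996 in GFP. EPCAM, a surface marker of epithelium, stood at 32.2, 22.2 and 31.8 CPM in NRG1 and at 32.5, 23.4 and 29.0 in HcRed. CDH1, the cadherin of epithelial junctions, stood at 20.8, 21.5 and 19.7 CPM in NRG1 and at 33.3, 23.4 and 23.7 in HcRed (adjusted p = 0.435). The cells of every group thus carried epithelial transcripts.

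FXYD3, AHNAK2, IGFL1 and MAL2 also lay below all 6 control wells. FXYD3, a regulator of the sodium pump, stood at 766, 730 and 839 CPM in NRG1, 1139, 1056 and 1164 in HcRed and 1718, 1538 and 1637 in GFP. The log2 fold changes against HcRed were -0.55 for FXYD3, -1.09 for AHNAK2, -1.62 for IGFL1 and -0.94 for MAL2. MALAT1, an abundant nuclear noncoding RNA, fell by 0.23 against HcRed but differed by -0.02 (adjusted p = 0.459) from GFP.

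**Figure D2:**
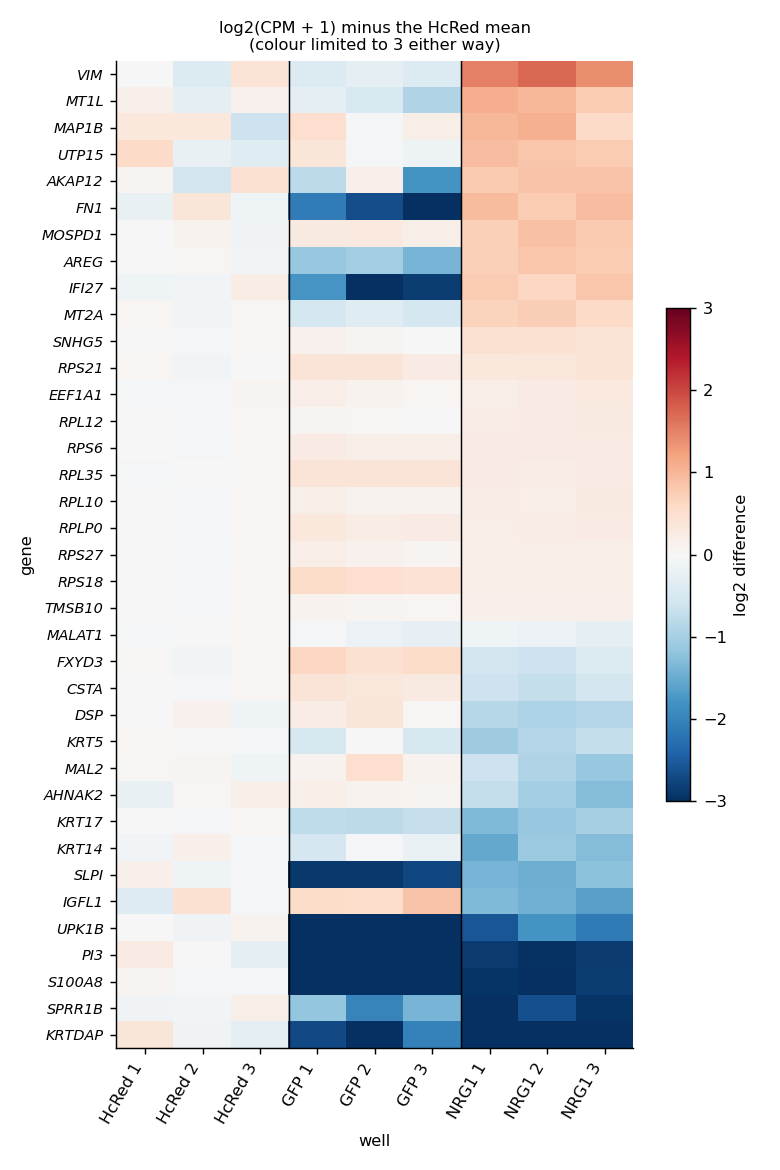
Heat map of log2(CPM + 1) minus the HcRed mean for named genes (vertical axis) in the 9 NRG1, HcRed and GFP wells (horizontal axis), with colour limited to 3 either way. VIM, MT2A and AREG were highest in the NRG1 wells, KRT5 and DSP were lowest there, and S100A8, PI3 and UPK1B were low in NRG1 and GFP alike.

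Of 78 cytosolic ribosomal protein genes, 43 were higher and 0 lower, with a list median of 0.10, but without TMM 25 were higher and 9 lower, so the direction of the small changes depended on scaling. RPS6, a protein of the small subunit, stood at 11630, 11698 and 11597 CPM in NRG1, at 9879, 9606 and 10036 in HcRed and at 11703, 11193 and 11194 in GFP. NRG1 lay above HcRed in every well and overlapped GFP. Its log2 fold change was 0.21 (adjusted p = 6.75e-30) against HcRed and 0.04 (adjusted p = 0.000907) against GFP. NRG1 lay above all 6 control wells for 24 of the 43 genes, and against GFP the list had 42 higher and 22 lower members. RPS18 showed how far the control mattered, with 0.15 against HcRed and -0.31 against GFP. RPS21, at 0.33, had the largest difference of the list. EEF1A1, which brings aminoacyl-tRNA to the ribosome, differed by 0.21 and SNHG5, a noncoding host of small nucleolar RNAs, by 0.41. Ribosomal protein genes have many processed copies in the genome, so their levels are uncertain.

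The remaining lists held few calls against HcRed, where 2.08% of all genes were higher and 0.998% lower. Among 31 interferon-stimulated genes, IFI27 and B2M were higher, with a list median of -0.01. Against GFP 11 of 30 were higher and 1 lower, with a median of 0.83, beside 7.14% and 4.86% of all genes. IFI27, a small interferon-induced protein, stood at 64.5, 57.8 and 66.9 CPM in NRG1, at 34.2, 35.2 and 43.5 in HcRed and at 10.2, 1.66 and 4.31 in GFP, a difference of 0.71 (adjusted p = 0.000951) from HcRed. B2M, the light chain of MHC class I, was higher than in HcRed (0.09) and lower than in GFP (-0.13). Of 27 ATF4 and unfolded protein response genes, PSAT1 (0.58), MTHFD2 (0.49), ASNS (0.32) and DDIT3 (0.55) were higher and SLC7A5, an amino acid transporter, was lower (-0.93). PSAT1, an enzyme of serine synthesis, stood at 171, 143 and 140 CPM in NRG1, at 95.8, 91.7 and 108 in HcRed and at 344, 322 and 313 in GFP. All 4 higher genes of that list were called lower than in GFP.

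Glycolysis and hypoxia genes had 2 higher of 28, GAPDH (0.18) and LDHB (0.19). Of 40 cell cycle genes, the replication clamp PCNA (0.21), the histone gene HIST1H4C (0.13) and the tubulin TUBA1B (0.12) were higher and 0 were lower. The median of that list was -0.005, and without TMM 0 of its members were higher and 2 lower. Under CSC, BaP and NNK without NRG1 NNK replicate 2, 0 were higher and 4 lower. The sterol list had 3 higher and 1 lower of 33, with MSMO1, a demethylating enzyme of cholesterol synthesis, at 0.30. The NRF2 target list had 2 higher and 1 lower of 25, the latter being FTH1, the ferritin heavy chain, at -0.46. Of 68 oxidative phosphorylation genes 5 were higher and 1 lower, but without TMM 0 were higher and 11 lower. Of 18 S100 and annexin genes 3 were higher and 2 lower, of 18 protease genes CTSB alone was lower (-0.44), and 0 of 11 chemokine genes and 0 of 2 secretory and ciliated markers were called.

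**Figure D3:**
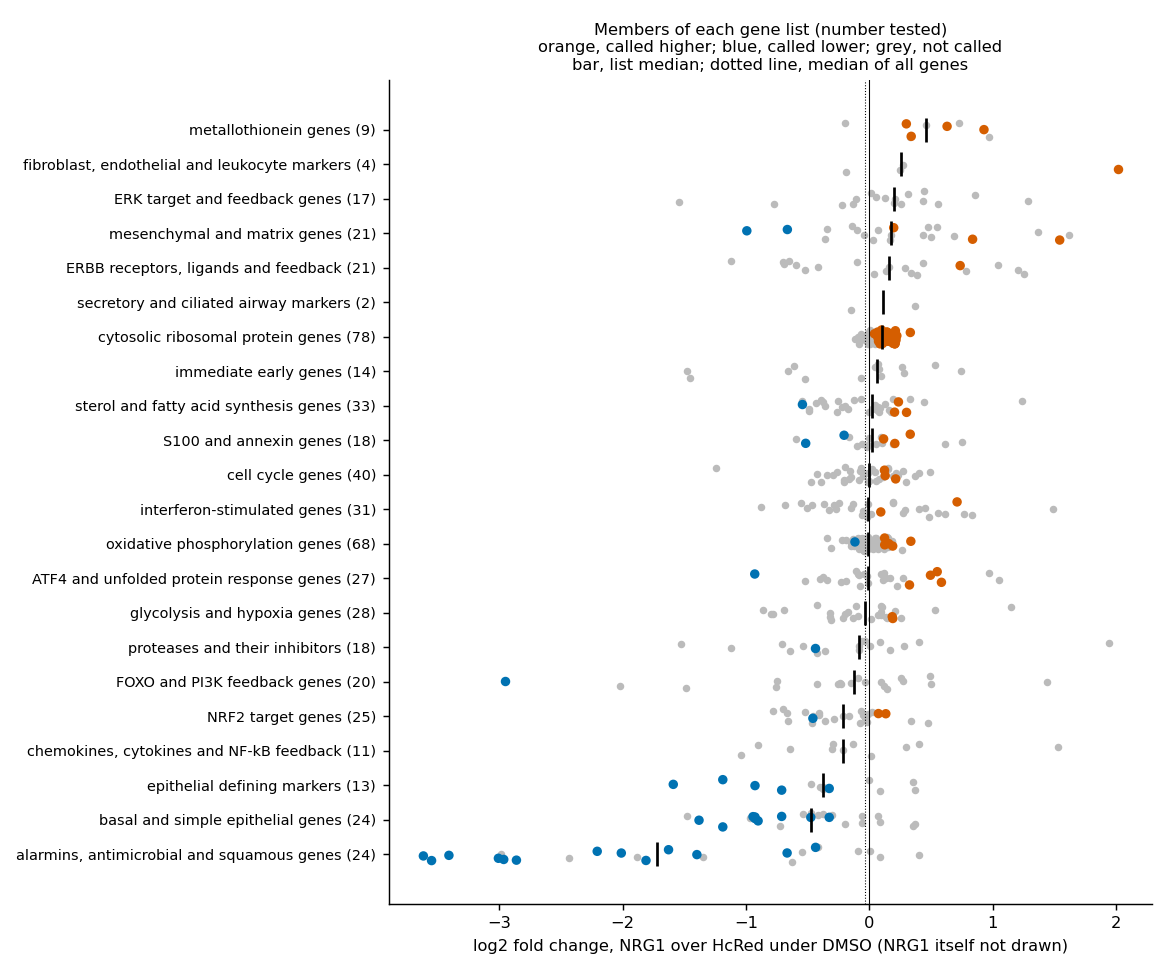
Log2 fold change of NRG1 over HcRed (x axis) for the tested members of each gene list (vertical axis), with list medians as bars and the median of all genes, -0.03, as a dotted line. The metallothionein median was 0.46, the ribosomal protein genes lay close to their median of 0.10, and the median of the alarmin and squamous list was -1.72.

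NRG1 cells were next set against all 7 other populations under DMSO. In a fit over the 24 wells, 400 of 11595 genes (3.45%) were called, 327 higher (2.82%) and 73 lower (0.63%). The count was 240 without NRG1 replicate 1 and 178 without NRG1 replicate 2. In 31 of the higher genes all 3 NRG1 wells lay above the 21 other wells, and in 4 of the lower genes they lay below them. Among all 11595 genes, called or not, 32 (0.276%) lay above and 9 (0.0776%) below. The calls came from these same 24 wells, so the counts describe the called genes and are no separate support. The higher ones included RPL22L1, a paralog of a ribosomal protein, at 733, 717 and 742 CPM against 124 to 638 elsewhere, and PSMA7, a proteasome subunit, at 556, 588 and 601 CPM against 193 to 538. PHACTR3, a regulator of protein phosphatase 1, stood at 95.3, 102 and 115 CPM against 16.6 to 88.4. VCAN, the matrix proteoglycan versican, stood at 4.70, 4.71 and 4.46 CPM against 0 to 3.05. In the NRG1 wells 3 counts make 1.83 to 1.95 CPM before TMM scaling, so VCAN rested on few counts. The 4 lower genes were the carboxypeptidase CPVL at 29.5 to 34.3 CPM against 35.8 to 138, the actin-binding LIMA1, the phosphatase subunit PPP2CA and the lysosomal protease CTSB.

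Several of the larger differences from HcRed were also found in PIK3CA cells, and some of them in cells with CDKN2A or FAT1 knocked out. VIM stood at 58.1 to 85.6 CPM in the PIK3CA wells and at 50.3 to 63.2 in NRG1, FN1 at 77.8 to 100 and 80.7 to 91.3, and AREG at 133 to 151 and 134 to 146. MT2A stood at 31081 to 35136 CPM in PIK3CA and 31847 to 35665 in NRG1, DSP at 101 to 112 and 108 to 114, and KRT5 at 157 to 211 and 152 to 195. For these 6 genes the wells of both populations overlapped, and no test between these populations was made. In FGFR1 cells VIM stood at 38.0 to 51.3 CPM, FN1 at 64.6 to 95.6 and AREG at 62.5 to 78.6. In CDKN2A cells KRT5 stood at 144 to 172 CPM, within or below the NRG1 range, and AREG at 94.0 to 126, between HcRed and NRG1. DSP stood there at 116, 189 and 97.7 CPM, so that 2 of the 3 wells were near the NRG1 level. FAT1 cells had KRT5 at 185 to 186 CPM, within the NRG1 range. VIM and FN1 were low in both knockouts, at no more than 15.1 and 27.0 CPM.

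**Figure D4:**
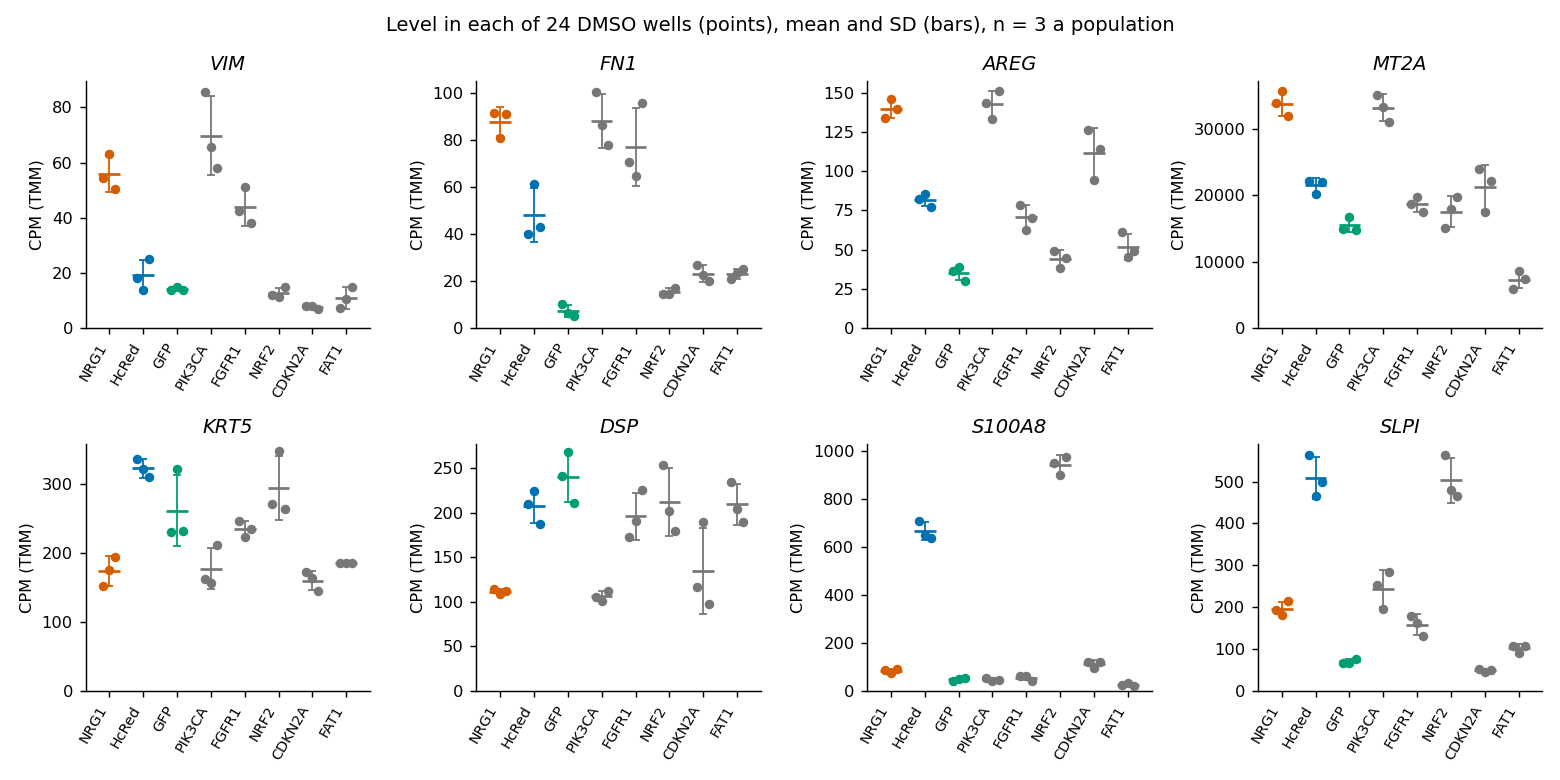
Level (CPM) of 8 genes in each of the 24 DMSO wells (points) with the mean and SD of the 3 wells of a population (bars). VIM, FN1, AREG and MT2A were high and DSP was low in both NRG1 and PIK3CA cells, and S100A8 and SLPI were high in HcRed and NRF2 cells.

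Wells that the DMSO comparison did not use gave a further measurement of the NRG1 to HcRed difference. These were exposed to cigarette smoke condensate (CSC, 24 µg/ml), benzo[a]pyrene (BaP, 173 µM) or the tobacco nitrosamine NNK (490 µM), and gave 8 samples a side once wells with related numbers were summed. NRG1 NNK replicate 2 stood apart from the other NRG1 NNK wells, the same ratio reaching 11.8 and 11.3 against them. With it, 102 genes (0.891%) were called, and without it 479 (4.24%), 241 higher (2.13%) and 238 lower (2.11%). Without it, 225 of the 236 higher DMSO genes kept their sign and 123 were called again, which is 52.1% of the DMSO list and 51.0% of the new one. Of the 113 lower genes 97 kept their sign and 59 were called again, 52.2% and 24.8% of the respective lists. The differences were smaller there, with a median of 0.17 against 0.28 under DMSO for the higher genes and -0.31 against -0.93 for the lower genes. RPL41 was the 1 gene called in opposite directions. With the outlying well kept, 168 higher and 82 lower genes kept their sign, with medians of 0.07 and -0.29, and 13 and 36 were called again.

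Among the named genes, VIM differed by 1.26, FN1 by 1.23, AREG by 0.79 and MT2A by 0.56 in those samples, all called. KRTDAP fell by 4.02, S100A8 by 2.80, PI3 by 2.88, KRT14 by 1.17 and KRT5 by 0.46, all called as well. HcRed was the only control in this fit, and for S100A8 and PI3 it was the group apart under DMSO. Their return here therefore does not tell a low NRG1 level from a high HcRed level. NRG1 was not tested against GFP under these chemicals. DUSP6, not called under DMSO, differed by 0.97 (adjusted p = 0.0103). The differences of MAL2 (0.01), SLC7A5 (0.06), LAMB3 (-0.12), CTSB (0.01) and CLDN1, a tight junction claudin (0.42), were not called there. CLDN1 had been called at -1.59 under DMSO, from 2.69, 6.05 and 1.91 CPM in NRG1 against 9.17, 10.3 and 9.93 in HcRed, and lost that call without NRG1 replicate 1, NRG1 replicate 3 or HcRed replicate 2. Of 24 tested alarmin and squamous genes 15 were lower and 0 higher, again against HcRed alone, and of the metallothioneins 5 were higher. The ribosomal protein genes had 20 higher and 5 lower members.

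**Figure D5:**
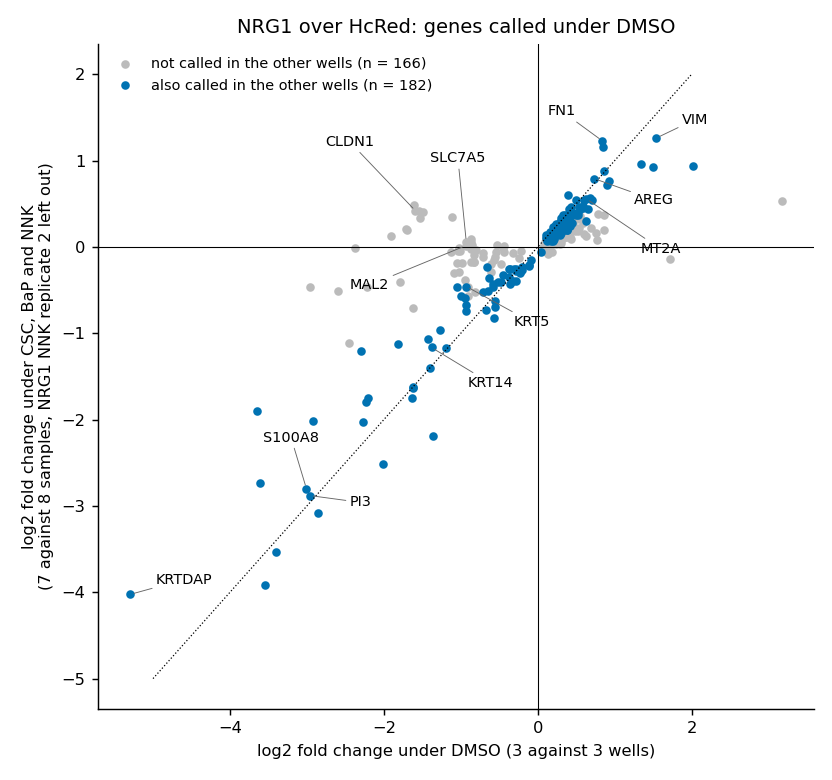
Log2 fold change of NRG1 over HcRed under DMSO (x axis) against that under CSC, BaP and NNK without NRG1 NNK replicate 2 (y axis) for the genes called under DMSO, each a point, with equality as a dotted line and NRG1 itself not drawn. VIM, AREG and S100A8 lay near the line, KRTDAP stood at -5.29 and -4.02, and MAL2, SLC7A5 and CLDN1 lay near or above 0 on the y axis.

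Whether the NRG1 difference itself changed with NNK was tested as an interaction over the 12 one-digit wells of both populations under DMSO and NNK. By limma-voom 0 of 11387 genes (0.0%) were called, 722 had an unadjusted p under 0.05, and edgeR and DESeq2 called 0. Without NRG1 NNK replicate 2 the interaction called 1 gene, RPS15A, at -0.15.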

How the data were processed

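Transcript ends of AALE wells were counted by 3′DGE. The tables the authors deposited, 1 for each well, hold unnormalized UMI counts by gene. Per the study's methods and the submitters' processing notes, the authors' pipeline aligned reads with BWA 0.7.10 to RefSeq transcripts of hg19 and counted each UMI once per gene. Groups came from the sample titles. Members and gene lists were chosen with earlier results of these data known. Genes with a mean count over 1 in the compared wells were tested in R 4.3.3 with limma 3.58.1, voom weights and TMM factors from edgeR 4.0.16, two-sided, with Benjamini-Hochberg adjustment over all genes tested and a threshold of 0.05. Alternatives used edgeR's quasi-likelihood test, DESeq2 1.42.0, other filters and scalings, and fits without each well. Depth limits detection. In a single simulation of 11295 genes of the NRG1 to HcRed comparison, changes were put only into genes averaging over 10 counts. All genes were given the same assumed dispersion. There limma recovered 23.9% of 67 changed genes at an absolute log2 change of 0.5, 76.1% of 67 at 1 and 95.5% of 66 at 2, with 1 false call. Recovery among genes with fewer counts was not measured.

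Named genes were NRG1, the 12 higher and 12 lower genes of smallest adjusted p whose NRG1 and HcRed wells did not overlap, the 10 higher and 10 lower of largest change called against both controls, beyond all 6 control wells and averaging at least 20 CPM in NRG1 or HcRed, the 10 higher and 10 lower of smallest adjusted p beyond all 21 other DMSO wells (4 lower existed), called list members and those defining a list. The text gives a selection, some particular genes are not reported here, and DUSP6 and FOSL1 were chosen after their values were seen. The wells under CSC, BaP and NNK were fitted with chemical as a covariate, wells whose 2-digit numbers share their first digit being summed. Gene positions are from GENCODE on hg19, which matched 22438 of 23895 symbols (93.9%), 1525 of them through synonyms. Promoter windows are from RefSeq on GRCh38.p14, and no coordinates were converted. The AP-1 and E-box letters were set with the gene lists, the metal response letters after the data were seen.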

Additional observations from a re-analysis of the deposited data

Results flagged for a closer look

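In 2 genes every well under another chemical moved the opposite way to DMSO, on a scaling over all NRG1 and HcRed wells. For HIST1H4C, a histone gene, the difference under CSC was -193.0 CPM, with HcRed at 1813, 1887 and 2015 and NRG1 at 1654, 1705 and 1777, whereas under DMSO NRG1 was higher. For RPS15A, a ribosomal protein gene, the difference under NNK was -979.0 CPM, with HcRed at 5230, 5238 and 5368 and NRG1 at 4966, 2861 and 5072. The value of 2861 came from NRG1 NNK replicate 2, the well that stood apart. The RPS15A interaction with NNK had an adjusted p of 0.785 in limma-voom with all wells and was called without that replicate. The difference of HIST1H4C under CSC was not tested against that under DMSO.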

How the results depend on the processing

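Of 2216 values of 155 named genes under the alternatives, 1916 kept their direction and side of the threshold, 289 lost the call, 6 gained one and 5 changed sign. All 5 changes came from library totals without TMM, which for single genes was added after seeing the data and gave FTL -0.003, RPL32 -0.0072, RPL34 -0.0029, RPL41 -0.0361 and RPS15A -0.0088. That setting also moved list medians, to 0.0734 for ERBB genes, 0.1312 for ERK targets, -0.1967 for FOXO and PI3K genes, 0.0953 for mesenchymal genes, -0.1577 for proteases, -0.0864 for interferon-stimulated genes, -0.0503 for sterol genes, -0.0766 for cell cycle genes, -0.2842 for NRF2 targets, -0.0529 for S100 and annexin genes, -0.4526 for epithelial markers, 0.0286 for ribosomal protein genes and -0.0891 for oxidative phosphorylation genes. The medians of the other lists moved by less than the spread between the NRG1 wells.

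The NRG1 to HcRed count of 349 became 217 with DESeq2 (183 higher and 34 lower), which left 9663 adjusted p values missing through its own filter. The count was 113 in a single fit over all DMSO wells (62 higher and 51 lower) and 204 to 331 when a well was left out. It was 372 with edgeR and 369 with DESeq2 size factors. In no leave-one-out fit did a called gene change sign. DESeq2 called 766 genes for NRG1 against GFP and 659 for GFP against HcRed. Against the other 7 populations the count was 178 to 286 when an NRG1 well was left out and 636 without the Cas9 populations. Under CSC, BaP and NNK it was 479 without NRG1 NNK replicate 2, 52 with 2-digit wells left out, 13 in NNK wells alone and 176 in CSC wells alone. The NNK interaction called 1 gene, RPS15A, without that replicate. The cause of these differences was not tested.

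Same-numbered wells deviated together little, with correlations of -0.0056 to 0.0022 between NRG1 and HcRed and 0.0098 to 0.041 between NRG1 and GFP. Different-numbered NRG1 and GFP wells ran from -0.043 to 0.021. Wells of a group differed little beyond counting noise, so correlations near 0 cannot show whether same-numbered wells shared a batch. With the replicate block the counts were 343 against HcRed, 1327 against GFP, 352 against the other populations, 20 in NNK wells alone and 1, SLC7A5, in the interaction.

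At this depth and the single dispersion assumed, a simulated log2 change of 0.5 was mostly missed even among genes averaging over 10 counts. Receptors and ERK targets at a few CPM mostly had fewer counts than that and remain undetermined.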

Other observations

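The following genes were chosen after their values were seen. They are single genes of no list tested here. NOP56, a core protein of small nucleolar ribonucleoproteins, stood at 273, 299 and 300 CPM in NRG1, at 215, 223 and 205 in HcRed and at 243, 241 and 208 in GFP, a log2 fold change of 0.40 (adjusted p = 0.000125) against HcRed and 0.35 against GFP. GNL3, the nucleolar protein nucleostemin, stood at 301, 283 and 266 CPM in NRG1, at 214, 197 and 218 in HcRed and at 153, 146 and 166 in GFP. HSPD1, a mitochondrial chaperonin, differed by 0.38 (adjusted p = 4.24e-12) from HcRed and 0.57 from GFP. For these 3 genes the NRG1 wells lay above every control well, and all 3 were called higher under CSC, BaP and NNK without NRG1 NNK replicate 2, at 0.34, 0.29 and 0.20. GAS5, a noncoding host of small nucleolar RNAs, was higher than in HcRed (0.45) but not called against GFP (0.11, adjusted p = 0.103).

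KLK7, a protease that cleaves desmosomes of stratified epithelium, stood at 1.34, 3.36 and 1.91 CPM in NRG1, at no less than 15.3 in HcRed and at 19.6, 19.1 and 23.7 in GFP. It fell by 2.92 (adjusted p = 2.30e-06) against HcRed and by 3.14 against GFP, and by 2.02 under the other chemicals. PERP, a desmosomal membrane protein, stood at 123, 129 and 127 CPM in NRG1, at 202, 214 and 169 in HcRed and at 217, 210 and 229 in GFP, and fell by 0.65 and 0.79. For KLK7 and PERP the controls lay close together and NRG1 lay below both.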
